A study of Mus musculus with 6 samples.

Results

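The genes described here are the voltage-gated sodium channel subunits Scn4a, Scn7a, Scn10a, Scn2b, Scn3b and Scn4b in mouse heart. They were picked by gene symbol, as a set chosen from results in which the levels of these same 6 libraries were in view, so their differences between groups are given as a description and are not a test of the set. Of the 6 genes named, 5 had a row in the table of 16229 genes, and all 5 passed the filter that kept the 12981 genes with a mean of at least 0 log2 CPM (CPM being read counts scaled to libraries of one size). Scn2b was not analysed here. The study measured poly-A RNA by sequencing in heart tissue of male C57BL/6 mice aged 8 to 10 weeks, in 3 groups of 2 libraries each, and its title names myocardial ischaemia and reperfusion injury. The first group (libraries 14 and 15) received rivaroxaban, an inhibitor of coagulation factor Xa, at 3 mg/kg for 7 days. The second (libraries 10 and 12) received dabigatran, an inhibitor of thrombin (factor IIa), at 10 mg/kg for 7 days. The third (libraries 8 and 9) was untreated. All tissue is described as the infarct with the heart around it, and nothing in the labels tells whether surgery was done on the untreated mice. Each drug was given at 1 dose and the doses differ, so drug and dose cannot be told apart between the treated groups. No label ties each library to its own mouse, so the spread behind each p-value is that between libraries and may be technical.

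A voltage-gated sodium channel carries the inward current that starts the action potential of heart muscle, skeletal muscle and nerve. Its pore is a large alpha subunit, and smaller beta subunits, membrane proteins with an immunoglobulin-like domain, alter its gating and its placing in the membrane. Scn4a (NaV1.4) is best known from skeletal muscle and Scn10a (NaV1.8) from sensory neurons, and both have been found in heart tissue. Scn7a encodes Nax, an atypical relative that responds to extracellular sodium and is not opened by voltage in the usual way, so the name of the set suits it only by family. Scn3b and Scn4b encode the beta-3 and beta-4 subunits, and the cytoplasmic tail of beta-4 can block the open pore.

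Read depth, recovered from the deposited values, was 27176892 to 43798222 reads in the libraries. Heart muscle transcripts were abundant in all groups. The 17 ventricular cardiomyocyte markers measured summed to 123830 to 127030 CPM in rivaroxaban hearts, 129290 to 130520 CPM in dabigatran hearts and 128490 to 130680 CPM in untreated hearts. These sums do not tell infarct from the heart around it. Pairs of libraries within a group differed by more than counting error, so none was counted as a copy of another. In a bulk sample, fewer cells of a type and less RNA per cell cannot be told apart, and this holds for each difference below.

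In coordinates of mouse build mm10 with GENCODE M21 gene models, Scn4a (ENSMUSG00000001027) lies on the minus strand of chr11:106318592-106353288 and Scn7a (ENSMUSG00000034810) on the minus strand of chr2:66673425-66784914. The other members are on chromosome 9. Scn10a (ENSMUSG00000034533) lies at chr9:119608456-119719322 on the minus strand. Scn4b (ENSMUSG00000046480) lies at chr9:45138395-45154152 on the plus strand, next to Scn2b at chr9:45117782-45130070, and Scn3b (ENSMUSG00000049281) lies at chr9:40269217-40291618 on the plus strand. No exon of these genes overlaps an exon of another annotated gene. Among the nearest tested genes on either side of the members, limma (Benjamini-Hochberg adjusted p of 0.05 or less) called 0 of 10 in each of the 3 comparisons. At an unadjusted p under 0.05 stood 2 for rivaroxaban minus untreated, 4 for dabigatran minus untreated and 1 for rivaroxaban minus dabigatran.

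RefSeq's table for build GRCm38.p6 held the 250 bases before an annotated start for 5 of the 6 members (all but Scn3b). Stretches of 30 bases around a searched motif are shown for Scn4b and Scn4a, the members called in a comparison below, and for Scn10a, whose window held the most matches. Capitals mark, on either strand, AGAACA in the Scn4b stretch, CACCC in the Scn4a stretch and TGACG in the Scn10a stretch, which also holds CACCC on the other strand, in lower case.
Scn4b: tgcccttactcgTGTTCTctgagcggaaca
Scn4a: ccaggaCACCCacctccctgacccaactcc
Scn10a: tgagTGACGgacgggtgaggtttcCGTCAg
The Scn4b stretch is at chr9:45138466-45138495 on the plus strand, the Scn4a stretch at chr11:106349521-106349550 on the minus strand and the Scn10a stretch at chr9:119719037-119719066 on the minus strand. GENCODE models place all 3 stretches inside exons, since they start these genes farther upstream than RefSeq does. The Scn4b window held AGAACA, the core of a glucocorticoid receptor site, at 1 place on the other strand, shown as its reverse complement. Of all 32851 windows, 16.1% held it on either strand. The Scn4b window held none of the other motifs. The Scn4a and Scn10a windows each held CACCC, bound by Krüppel-like factors, at 4 places, and 2.14% of all windows held it 4 or more times, while 52% held at least 1. TGACG, the core of a cyclic AMP response element, stood at 3 places in the Scn10a window and in no other member's, and 0.688% of all windows held it 3 or more times. The other motifs searched on both strands were the clock E-box CACGTG (6.02% of windows), the E-box CANNTG (66.2%, which takes in the clock E-box), the TATA box TATAAA (12.4%), the GC box GGGCGG (32.7%), the T-box site AGGTGT (11.8%), the NKX core AAGTG (40.7%) and the GATA site AGATAA (9.99%). Outside the 3 genes shown, the Scn7a window held an E-box, a GC box, a Krüppel-like factor core and a GATA site at 1 place each, and the Scn2b window held an E-box at 2 places and a Krüppel-like factor core at 1. These are letters in a window, with no reading of what binds there.

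Per length, the members fell into a higher group of Scn4b, Scn4a and Scn7a and a lower group of Scn10a and Scn3b. The order of the members over all 6 libraries, in CPM per kilobase of exon, was Scn4b with a median of 11.5, Scn4a with 4.24, Scn7a with 3.36, Scn10a with 0.483 and Scn3b with 0.231. Lower than these, among the other sodium channel genes reported here, came Nalcn, a sodium leak channel, with 0.198, Scn3a with 0.145, Scn2a with 0.0641, Scn1a with 0.0133 and Scn8a with 0.0105. Scn4b ranged from 8.39 to 16.1 CPM per kilobase, above each other member in every library. Scn4a, at 3.59 to 5.43, overlapped Scn7a, at 3.11 to 3.64, in their ranges, although Scn4a was the higher in each library. Scn10a, at 0.383 to 0.567, was apart from its neighbours on both sides. Scn3b, at 0.0956 to 0.296, overlapped Nalcn (0.137 to 0.247) and Scn3a (0.115 to 0.198), so the order of these 3 was within the spread of the libraries. Scn9a and Scn11a were not analysed here, and Scn2a, Scn1a and Scn8a were below the filter.

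**Figure D1:**
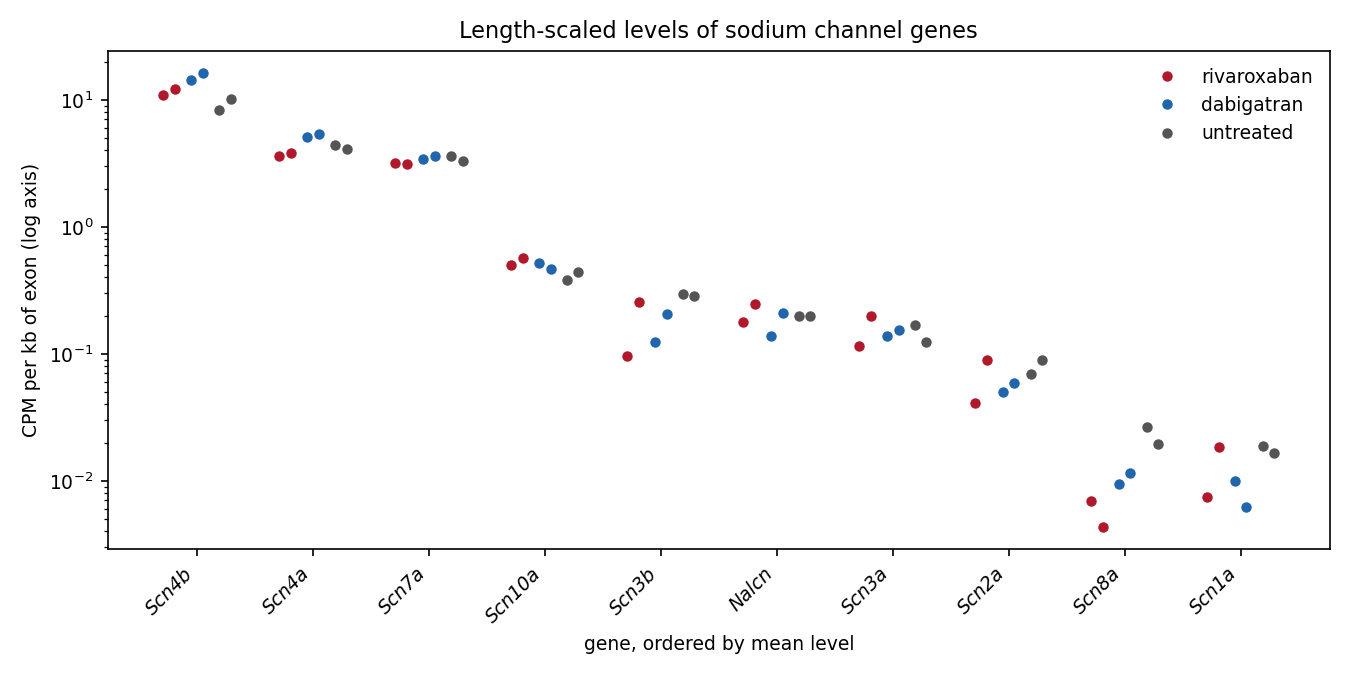
Level of the members and of the other sodium channel genes reported here in each library, in CPM per kilobase of exon on a log axis, with rivaroxaban, dabigatran and untreated libraries from left to right for each gene. Scn4b is the highest of the genes shown, Scn4a and Scn7a follow it, and Scn10a and Scn3b are over 10 times lower than Scn4b.

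The comparison of each drug with no treatment asked which heart transcripts differed under an inhibitor of factor Xa or of thrombin, and the comparison of the drugs with each other asked where the inhibitors differed. Against untreated hearts, Scn4b stood higher under both drugs and most under dabigatran, Scn10a stood higher under both, and Scn3b was lower on average but scattered. Scn4a stood on opposite sides of the untreated level, lower under rivaroxaban and higher under dabigatran, and Scn7a differed little. Over all 12981 genes, limma called 2.46% in rivaroxaban against untreated hearts, and 0 of the 5 members measured, with 3 of the 5 at an unadjusted p under 0.05. Over all genes, the share at an unadjusted p under 0.05 was 17.2% for rivaroxaban minus untreated, 14.7% for dabigatran minus untreated and 8.43% for rivaroxaban minus dabigatran, which is the background for each such count of a list below. In dabigatran against untreated hearts it called 1.88% of all genes and 1 of the 5 members, Scn4b. In rivaroxaban against dabigatran hearts it called 0.077% of all genes, which is 10 genes, and 1 of the 5 members, Scn4a. The groups did not overlap for 5 of the 5 members in rivaroxaban against untreated hearts, beside 50.6% of all genes. They did not overlap for 4 of the 5 in dabigatran against untreated hearts, beside 43.6% of all genes, and for 3 of the 5 in rivaroxaban against dabigatran hearts, beside 39.7%. Since the members were chosen on these libraries, nothing is read from these counts. The shares of all genes called by limma are the background for each count of called list genes below. The lists, too, were chosen with earlier results of these data known. Their counts beside these shares are therefore a description and not a test of any list.

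**Figure D2:**
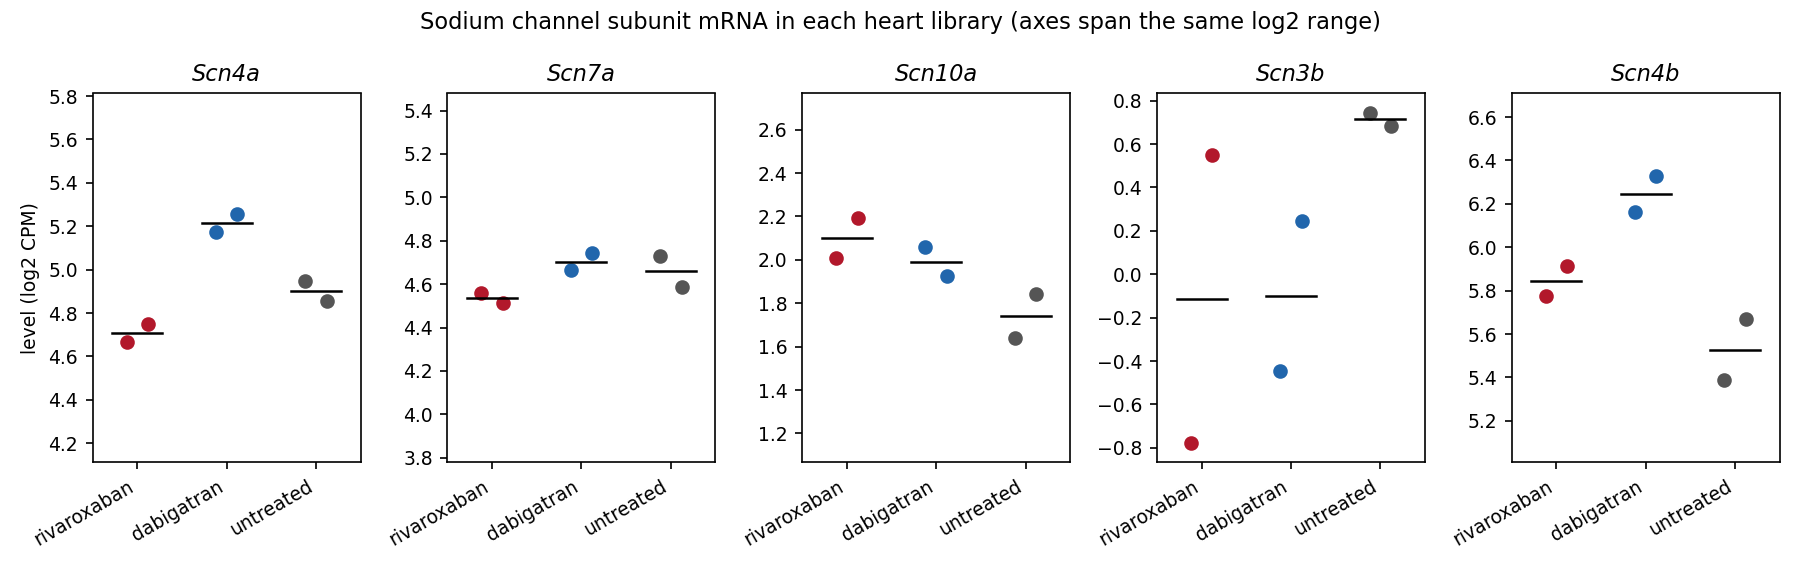
Level of each measured member in each library in log2 CPM, where points are libraries and bars are group means, and every axis spans the same log2 range. Scn4b is highest in both dabigatran libraries, Scn4a is lowest in both rivaroxaban and highest in both dabigatran libraries, and Scn3b has its widest spread within the rivaroxaban group.

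Among the pore-forming members, Scn4a, the adult skeletal muscle channel, had levels of 4.67 and 4.75 log2 CPM in rivaroxaban hearts, 5.17 and 5.26 log2 CPM in dabigatran hearts, and 4.95 and 4.86 log2 CPM in untreated hearts. These rested on 921 and 784 reads in rivaroxaban hearts, 965 and 1668 in dabigatran hearts, and 879 and 936 in untreated hearts. Both rivaroxaban libraries were below both untreated libraries, both dabigatran libraries were above them, and no group overlapped another. The means were 4.71 ± 0.06 log2 CPM in rivaroxaban hearts, 5.22 ± 0.06 in dabigatran hearts and 4.90 ± 0.07 in untreated hearts (SD, n = 2 each). The log2 difference was −0.20 for rivaroxaban minus untreated (SE 0.07, 95% interval −0.36 to −0.03) and 0.31 for dabigatran minus untreated (interval 0.15 to 0.48). Neither was called by limma, with Benjamini-Hochberg adjusted p of 0.209 for rivaroxaban and 0.0649 for dabigatran. Both comparisons share the untreated libraries.

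Between the drugs, the Scn4a level was lower in rivaroxaban than in dabigatran hearts by a log2 difference of −0.51 (interval −0.67 to −0.34), a level 0.703 times that of dabigatran hearts. Of all tested genes, 231, or 1.78%, had a log2 difference of at least this size in either direction. The limma adjusted p was 0.0445, just inside the threshold, and the call was kept in 4 of 13 alternative settings, over which the adjusted p ran from 0.0324 to 0.453. It was lost with each of the 6 libraries left out in turn, with adjusted p between 0.0542 and 0.371, while the log2 difference stayed between −0.55 and −0.47 over all 13 settings. All 10 genes called between the drugs were lower in rivaroxaban hearts, and beside Scn4a they included Abi1, Bmp6, Fah, Ccdc171, Cyp26b1, Zfp970, Zfp972 and Cxcl14.

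Scn7a, the sodium-sensing relative, had 4.56 and 4.51 log2 CPM in rivaroxaban hearts, 4.67 and 4.74 log2 CPM in dabigatran hearts, and 4.73 and 4.59 log2 CPM in untreated hearts. The rivaroxaban libraries were the lowest, by a margin smaller than the gap between the untreated libraries, and the dabigatran libraries overlapped the untreated ones. The log2 difference was −0.12 (interval −0.30 to 0.05) for rivaroxaban minus untreated, 0.05 (−0.13 to 0.22) for dabigatran minus untreated and −0.17 (−0.34 to 0.01) for rivaroxaban minus dabigatran. As ratios of levels, the 95% intervals of the 3 comparisons together ran from 0.788 to 1.17, and limma called none of the 3.

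Scn10a, the channel of pain-sensing neurons that has also been described in cardiac nerves and conduction tissue, had levels of 2.01 and 2.20 log2 CPM in rivaroxaban hearts, 2.06 and 1.92 log2 CPM in dabigatran hearts, and 1.64 and 1.84 log2 CPM in untreated hearts. It had 144 and 132 reads in rivaroxaban hearts, 110 and 163 in dabigatran hearts, and 87 and 114 in untreated hearts. All 4 treated libraries were above both untreated libraries, and the drugs overlapped each other. The 95% Poisson intervals, which cover counting error only, were 2.44 to 3.76 and 2.91 to 4.23 CPM in untreated hearts. They were 3.34 to 4.66 and 3.78 to 5.36 CPM in rivaroxaban hearts, and 3.38 to 4.95 and 3.18 to 4.35 CPM in dabigatran hearts. The interval of untreated library 9 overlapped those of all treated libraries, and that of untreated library 8 all but that of rivaroxaban library 15. The log2 difference was 0.36 (SE 0.16, interval 0.01 to 0.72) for rivaroxaban minus untreated, 0.25 (interval −0.10 to 0.61) for dabigatran minus untreated and 0.11 (−0.25 to 0.46) for rivaroxaban minus dabigatran. limma called none of the 3.

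Of the beta subunits, Scn4b, which modifies closing and reopening of the channel, had levels of 5.77 and 5.91 log2 CPM in rivaroxaban hearts, 6.16 and 6.33 log2 CPM in dabigatran hearts, and 5.39 and 5.67 log2 CPM in untreated hearts. The reads were 1989 and 1757 in rivaroxaban hearts, 1915 and 3509 in dabigatran hearts, and 1191 and 1646 in untreated hearts. The 3 groups did not overlap: dabigatran libraries were highest, rivaroxaban libraries next and untreated libraries lowest. The means were 5.84 ± 0.10 log2 CPM in rivaroxaban hearts, 6.25 ± 0.12 in dabigatran hearts and 5.53 ± 0.20 in untreated hearts (SD, n = 2 each). Per kilobase of exon the mean level was 11.5 CPM in rivaroxaban hearts, 15.2 CPM in dabigatran hearts and 9.30 CPM in untreated hearts.

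The Scn4b log2 difference was 0.72 for dabigatran minus untreated (SE 0.10, interval 0.51 to 0.93), a level 1.64 times that of untreated hearts (interval 1.42 to 1.90), with a limma adjusted p of 0.00553. In that comparison 194 of the tested genes, or 1.49%, had a log2 difference at least as large. The call held in 12 of 13 alternative settings and with each library left out, where the log2 difference ran from 0.58 to 0.86. It was lost without the mean-variance trend in limma, at an adjusted p of 0.169, and the adjusted p over the alternatives ran from 0.00309 to 0.169. For rivaroxaban minus untreated the Scn4b log2 difference was 0.31 (interval 0.10 to 0.53) and was not called, with a limma adjusted p of 0.121. Leaving out untreated library 9 brought it to 0.46 with an adjusted p of 0.0449, the lowest of the 13 alternatives, over which the adjusted p reached 0.551. Leaving out untreated library 8 brought it to 0.17, with an adjusted p of 0.510. For rivaroxaban minus dabigatran it was −0.40 (interval −0.61 to −0.19, limma adjusted p 0.236), so a difference between the drugs in Scn4b did not pass the test.

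Scn3b, the beta subunit whose human gene has been tied to inherited arrhythmia, had few reads and the widest scatter of the members. It had 19 and 41 reads in rivaroxaban hearts, 18 and 49 in dabigatran hearts, and 46 and 50 in untreated hearts. On the log2 CPM scale the levels were −0.78 and 0.55 in rivaroxaban hearts, −0.45 and 0.24 in dabigatran hearts, and 0.74 and 0.68 in untreated hearts. Both untreated libraries were above the other 4, but 1 rivaroxaban library was close to them. The 95% Poisson intervals for the reads were 11.4 to 29.7 and 29.4 to 55.6 in rivaroxaban hearts, 10.7 to 28.4 and 36.3 to 64.8 in dabigatran hearts, and 33.7 to 61.4 and 37.1 to 65.9 in untreated hearts. The log2 difference was −0.83 (SE 0.42, interval −1.75 to 0.09) for rivaroxaban minus untreated, −0.82 (interval −1.73 to 0.10) for dabigatran minus untreated and −0.01 (−0.93 to 0.91) for rivaroxaban minus dabigatran. With 1 library left out at a time, the log2 difference of rivaroxaban minus untreated ran from −1.49 to −0.16, so its size was set by which rivaroxaban library was kept. No difference passed the test. In rivaroxaban hearts the library with more reads in all had the fewer Scn3b reads, at 0.522 CPM (Poisson interval 0.314 to 0.815) against 1.40 CPM (1.01 to 1.90) in the other, so the scatter within the group was larger than counting error.

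**Figure D3:**
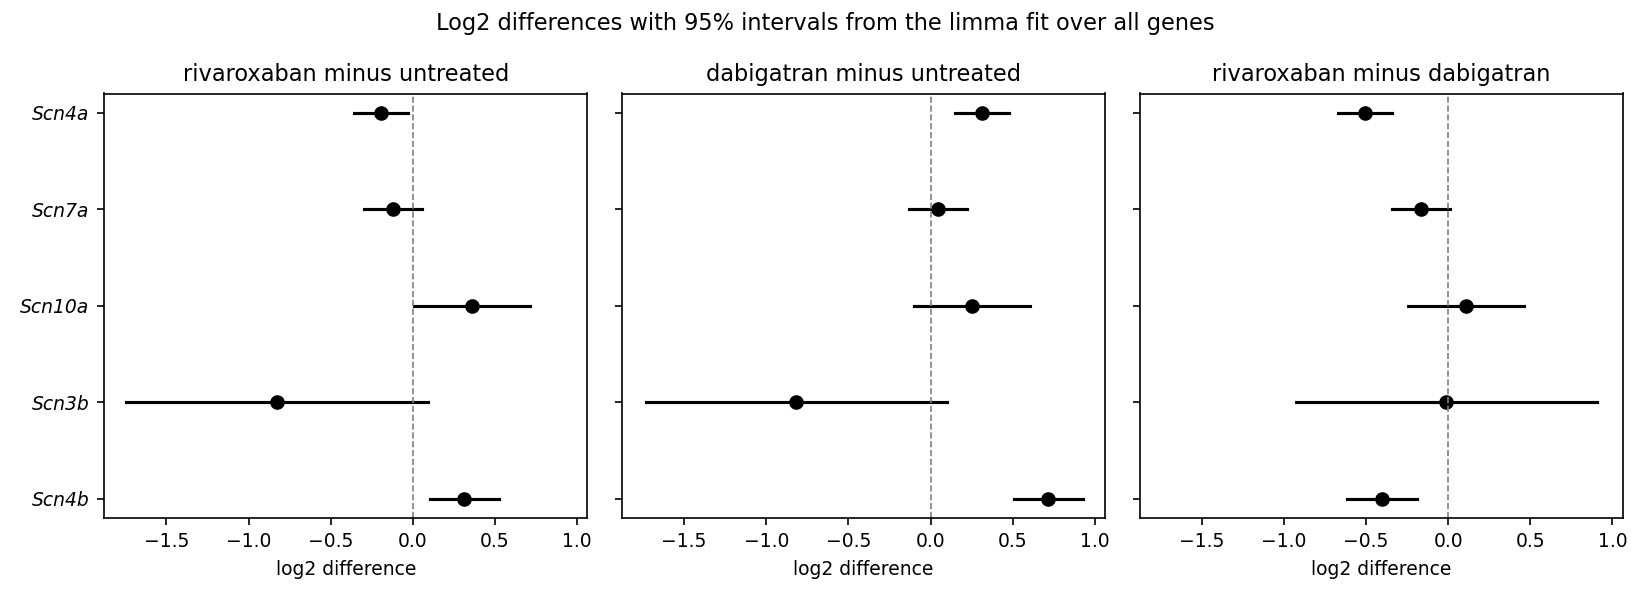
Log2 difference of each measured member, with 95% intervals from limma, for rivaroxaban minus untreated, dabigatran minus untreated and rivaroxaban minus dabigatran. The Scn4b interval lies to the right of 0 in both comparisons with untreated hearts, the Scn4a interval lies on opposite sides of 0 in them, and the Scn3b intervals are the widest.

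Of the 9 other sodium channel genes listed, 4 passed the filter, Scn3a and Nalcn among them. limma called 0 of the 4 in each of the 3 comparisons, and 0 had an unadjusted p under 0.05. Scn8a (NaV1.6), below the filter, had 4 and 2 reads in rivaroxaban hearts, 4 and 8 in dabigatran hearts, and 12 and 10 in untreated hearts. Without the filter its log2 difference was −1.51 (interval −2.57 to −0.44, limma adjusted p 0.150) for rivaroxaban minus untreated, which was not a call. Scn3a, a channel of nerve cells, had log2 differences of 0.06 for rivaroxaban and 0.00 for dabigatran against untreated hearts, and Nalcn had 0.09 for rivaroxaban and −0.22 for dabigatran.

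Of the 2 members called in a comparison, Scn4a and Scn4b can be set against each other within a library, which removes the scaling between libraries. Scn4a had 46.3 and 44.6 reads per 100 reads of Scn4b in rivaroxaban hearts, 50.4 and 47.5 in dabigatran hearts, and 73.8 and 56.9 in untreated hearts. The treated libraries were all below the untreated ones, and the drugs did not overlap. A ratio shows unequal levels of a pair of transcripts and does not say which of them differed.

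Over the 6 libraries some pairs of members ran in parallel and others did not, as a description with groups and scaling in common. The log2 levels of Scn4a and Scn7a had Pearson's r of 0.817, those of Scn4a and Scn4b 0.613 and those of Scn10a and Scn4b 0.602. Scn10a and Scn7a had −0.642, Scn10a and Scn3b had −0.433, and Scn3b had −0.387 with Scn4b. The genes with the profile nearest to each member were taken by the root mean square difference of centred log2 CPM over the 6 libraries. For Scn4b they were Gpcpd1 (0.0863, r = 0.976), Cdh4 (0.0957) and Trim36 (0.104). For Scn4a they were Slc17a7 (0.0619, r = 0.957), Stbd1 (0.0753) and Gfpt2 (0.0759). For Scn10a they were Unc13a (0.0390, r = 0.975), Lnx1 (0.0393) and Slfn5os (0.0407). For Scn7a, which varied little, they were Mief2 (0.0116, r = 0.991), Slc38a9 (0.0164) and Gbp2 (0.0170). The nearest to Scn3b, Tm4sf5 (0.195, r = 0.943), Cybrd1 (0.256) and Sec14l5 (0.257), were farther from it than the nearest genes of the other members were from theirs.

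The proteins that hold the channel in the membrane or set its gating (such as Ank2 and Ank3, the ankyrins, Fgf13, Nedd4l and Camk2d) were not called: 0 of 27 tested in each of the 3 comparisons by limma. At an unadjusted p under 0.05 stood 6 of them for rivaroxaban minus untreated, 9 for dabigatran minus untreated and 2 for rivaroxaban minus dabigatran, beside shares of 17.2%, 14.7% and 8.43% over all genes in these comparisons. Their median log2 difference was −0.03 for rivaroxaban minus untreated, −0.04 for dabigatran minus untreated and −0.00 for rivaroxaban minus dabigatran. Over all tested genes the median in these comparisons was within 0.01 of 0, and that is the background for the medians of each list below. Cav3, the caveolin of muscle membranes, had the lowest log2 difference of the 27 for rivaroxaban minus untreated, −0.25 (limma adjusted p 0.0695). Sptbn4 had the highest, 0.65 (limma adjusted p 0.298), and neither was called. The sodium pump and other sodium transport genes (such as Atp1b1, Fxyd1 and Slc8a1) had 0 of 12 called in each comparison, with 2 at an unadjusted p under 0.05 for each drug against untreated hearts and 3 between the drugs. Their median log2 difference was −0.02 for rivaroxaban minus untreated, −0.03 for dabigatran minus untreated and 0.01 for rivaroxaban minus dabigatran.

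Of 19 tested transcription factors tied to cardiac sodium channel genes, limma called 2 for rivaroxaban and 1 for dabigatran against untreated hearts, all lower, and 0 between the drugs. At an unadjusted p under 0.05 stood 11 of the 19 for rivaroxaban minus untreated, 9 for dabigatran minus untreated and 0 for rivaroxaban minus dabigatran, beside 17.2%, 14.7% and 8.43% of all genes. Irx3, a homeobox factor of the fast conduction system, fell in both, with log2 differences of −0.46 for rivaroxaban (adjusted p 0.0160) and −0.51 for dabigatran (adjusted p 0.0115). Mef2c, a muscle transcription factor, fell under rivaroxaban, with a log2 difference of −0.29. The median log2 differences of the list were −0.06 for rivaroxaban minus untreated, −0.09 for dabigatran minus untreated and 0.01 for rivaroxaban minus dabigatran. The Irx3 call for rivaroxaban and the Mef2c call were each lost without either rivaroxaban library and without either untreated library, and the Irx3 call for dabigatran without dabigatran library 10 or untreated library 8.

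The members are also expressed outside heart muscle, and markers of those other cells are given here beside the members; their part in the member differences was not tested. Skeletal muscle, where Scn4a is the main channel, had 7 tested markers, of which limma called 0 in each comparison. At an unadjusted p under 0.05 stood 1 for rivaroxaban minus untreated, 0 for dabigatran minus untreated and 2 for rivaroxaban minus dabigatran. The 14 skeletal markers in the table summed to 144 to 146 CPM in rivaroxaban hearts, 142 to 157 CPM in dabigatran hearts and 132 to 180 CPM in untreated hearts, so the groups overlapped. The highest of them was Myot, with log2 differences of −0.09 for rivaroxaban and 0.15 for dabigatran against untreated hearts. Next came Mybpc2 (−0.27 for rivaroxaban, −0.04 for dabigatran), Tnnt1 (0.27 for rivaroxaban, −0.05 for dabigatran) and Casq1 (−0.19 for rivaroxaban, −0.42 for dabigatran). Tnni2, Mylpf and Cacna1s also did not pass. Tnnt3, Actn3, Atp2a1, Myod1, Ryr1, Chrna1 and Mybpc1 were below the filter, with means under 0 log2 CPM. They added little to the sum, so its overlap between groups says little of them. None of the 14 was at 0 in any library. The median log2 difference of the 7 tested was 0.00 for rivaroxaban minus untreated, −0.05 for dabigatran minus untreated and 0.19 for rivaroxaban minus dabigatran. In rivaroxaban minus dabigatran the single markers ran from −0.29 to 0.32.

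Schwann cells, which surround nerve fibres and in which Scn7a is found, had 12 tested markers, of which limma called 1 for rivaroxaban minus untreated. That was Mbp, a myelin protein, which fell by 0.65 on the log2 scale, and the call was lost without either rivaroxaban library and without either untreated library. limma called 0 of 12 for dabigatran minus untreated and 0 of 12 between the drugs, with 2 at an unadjusted p under 0.05 in each. The 18 Schwann markers in the table summed to 576 to 585 CPM in rivaroxaban hearts, 609 to 626 CPM in dabigatran hearts and 559 to 566 CPM in untreated hearts, with no overlap, led by Art3, Pmp22, Mal and Erbb3. Art3 alone had a mean of 8.73 log2 CPM and is also expressed in muscle. Sox10, Prx, Cdh19, Gfra3, Cnp and L1cam were among those that did not pass, and the median log2 difference over the 12 was −0.08 for rivaroxaban minus untreated, −0.10 for dabigatran minus untreated and −0.02 for rivaroxaban minus dabigatran. No listed marker in the table was at 0 in any library.

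Neurons, where Scn10a is best known, had only 4 tested markers: Uchl1, Stmn2, Ddc and Dbh. limma called Ddc, an enzyme of catecholamine synthesis, for dabigatran minus untreated, where it fell by 0.74 on the log2 scale; the call was lost without dabigatran library 12 or untreated library 8. It called 0 of 4 for rivaroxaban minus untreated, with 3 at an unadjusted p under 0.05, and 0 of 4 between the drugs, with 2. Dbh, which makes noradrenaline, had log2 differences of 0.47 for rivaroxaban and 0.17 for dabigatran against untreated hearts. Stmn2 had −0.47 for rivaroxaban and −0.11 for dabigatran, and Uchl1 had 0.00 for rivaroxaban and 0.14 for dabigatran. The median of the 4 was −0.14 for rivaroxaban minus untreated, 0.02 for dabigatran minus untreated and 0.08 for rivaroxaban minus dabigatran. The 11 neuron markers in the table summed to 35.2 to 35.8 CPM in rivaroxaban hearts, 33.2 to 36.7 CPM in dabigatran hearts and 35.0 to 41.6 CPM in untreated hearts, and none was at 0.

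The conduction system, in which Scn10a has been studied, had 16 tested markers, of which limma called 3 for rivaroxaban minus untreated (2 higher) and 2 for dabigatran minus untreated (1 higher). Cntn2, a cell adhesion protein of Purkinje fibres, rose with log2 differences of 1.32 under rivaroxaban and 1.56 under dabigatran. Gja5, the connexin-40 gap junction gene, rose under rivaroxaban with a log2 difference of 0.69, and the third gene was Irx3, described above. Each Cntn2 call was lost without untreated library 8, that for rivaroxaban also without rivaroxaban library 15 and that for dabigatran also without dabigatran library 10, and the Gja5 call was lost without untreated library 8 or either rivaroxaban library, and under quantile normalization. Between the drugs limma called 0 of 16, with 1 at an unadjusted p under 0.05. The 19 conduction markers in the table summed to 200.4 to 205 CPM in rivaroxaban hearts, 182 to 186 CPM in dabigatran hearts and 191 to 202 CPM in untreated hearts. The median log2 differences over the tested markers were 0.18 for rivaroxaban minus untreated, 0.02 for dabigatran minus untreated and 0.10 for rivaroxaban minus dabigatran.

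Of 12 tested atrial markers, limma called 3 for each drug against untreated hearts, beside 2.46% of all genes for rivaroxaban and 1.88% for dabigatran. At an unadjusted p under 0.05 stood 4 for rivaroxaban and 6 for dabigatran against untreated hearts. Between the drugs limma called 0, with 1 at an unadjusted p under 0.05. Kcna5, a potassium channel gene with a mean of 5.56 log2 CPM here, rose with log2 differences of 1.01 under rivaroxaban and 0.87 under dabigatran. These calls held with each library left out. Upk3b, a mesothelial gene, fell by 0.93 under rivaroxaban and by 0.76 under dabigatran on the log2 scale, the dabigatran call being lost without dabigatran library 10 or untreated library 8. Kcnj3, a muscarinic-gated potassium channel, fell by 0.37 under rivaroxaban, which was lost without untreated library 8 or either rivaroxaban library. Clu, clusterin, rose by 0.30 under dabigatran on the same scale, which was lost without dabigatran library 10 or untreated library 8. Among the uncalled markers, Myl7 had log2 differences of −1.17 for rivaroxaban and −0.93 for dabigatran against untreated hearts, on 17 to 64 reads. Nppa had 0.03 for rivaroxaban and −0.02 for dabigatran, and Myl4 had −0.06 for rivaroxaban and 0.10 for dabigatran. The atrial list summed to 1884 to 1983 CPM in rivaroxaban hearts, 2081 to 2108 CPM in dabigatran hearts and 1794 to 2009 CPM in untreated hearts. This sum was led by Clu, with a mean of 9.73 log2 CPM, and Pam, with 9.58. The mean of Clu was 9.63 log2 CPM in rivaroxaban, 9.94 in dabigatran and 9.63 in untreated hearts, so the sum says little of the other markers. Its median log2 difference was −0.04 for rivaroxaban minus untreated, −0.01 for dabigatran minus untreated and −0.12 for rivaroxaban minus dabigatran.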

How the data were processed

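Poly-A RNA of 6 mouse heart libraries was sequenced with a strand-marking kit, per the labels' protocols. The deposited values are log2 CPM after TMM scaling, per the file headers. Per the submitters' processing notes, build mm10 was used with STAR, edgeR, Trim Galore, FastQC and bcl2fastq; versions: not given in the sources used here. Some genes that the naming rule below would take are not reported here. The members and gene lists were chosen with earlier results of these data known.

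The deposited log2 values were tested as they stand with limma 3.58.1 in R 4.3.3: 3 group means fitted together, 3 residual and 7.75 prior degrees of freedom, moderated variances with a mean-variance trend, two-sided tests, Benjamini-Hochberg adjustment over the 12981 genes whose mean log2 CPM reached 0 or more, and a threshold of 0.05. The design had foreseen count models as alternatives, which were not run on these log2 values. CPM had a floor of 0.0609 in each library. Less that floor, values below 200 steps were whole multiples of 1 read within 0.02 reads in 100% of cases. A read was worth 0.0229 to 0.0373 CPM. Reads describe precision; 95% Poisson intervals cover counting error only. The fit was also run on simulated reads with the same relative spread between libraries for all genes. Such data cannot show how the fit behaves where genes differ in spread. Levels per kilobase divide CPM by GENCODE M21 exon length. Over 12347 genes, chi-square per gene was 5.88 to 8.84 within groups. Replicate numbers are not shared between groups.

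Named were all members, the members of each list called against untreated hearts (at most 8 per list), the 4 highest and the uncalled of the subunit, Schwann, neuron and skeletal lists, and the 3 genes nearest to each member. Some uncalled genes of the partner, sodium transport and atrial lists are named as well. The lists were 13 in all: other subunits, partner proteins, transcription factors, sodium transport, and markers of Schwann cells, neurons, conduction system, atrium, ventricle, skeletal muscle, fibroblasts, mural cells and endothelium.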

Additional observations from a re-analysis of the deposited data

How the results depend on the processing

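In all, 13 alternatives were run with limma: other scaling, filters, pseudocount, spread models, the groups compared alone, and each library left out. Without the mean-variance trend, limma called 0 genes in each of the 3 comparisons, with 1938, 1728 and 984 at an unadjusted p under 0.05 for rivaroxaban minus untreated, dabigatran minus untreated and rivaroxaban minus dabigatran. Quantile normalization gave 154 genes for dabigatran minus untreated and 1 for rivaroxaban minus dabigatran, and the fit of only the groups compared gave 6 between the drugs. With 1 library left out, its partner was assumed to vary like the other groups, and the count ran from 61 to 410 for rivaroxaban minus untreated, from 73 to 270 for dabigatran minus untreated and from 0 to 20 for rivaroxaban minus dabigatran. The count for rivaroxaban minus untreated was 173 without rivaroxaban library 14, 61 without 15, 134 without untreated library 8 and 212 without 9. That for dabigatran minus untreated was 98 without dabigatran library 10, 73 without untreated library 8 and 150 without 9. That between the drugs was 0 without rivaroxaban library 14, rivaroxaban library 15 or dabigatran library 10 (647, 841 and 740 at an unadjusted p under 0.05), 20 without dabigatran library 12, and 6 without either untreated library. The cause was not tested. Every call of a list gene or member named in the text was lost without the trend, since no gene was called. The limma call of Scn4a between the drugs was also lost in the fit of only those groups (adjusted p 0.0545) and under quantile normalization (0.0865), within a range of 0.0324 to 0.453 over the alternatives. The log2 difference of Scn7a for dabigatran minus untreated ran from −0.03 to 0.12, and that of Scn3b for rivaroxaban minus dabigatran from −0.68 to 0.65, with a library left out. The planned count models were not run. No paired analysis was possible because the groups share no replicate number. Scn3b rested on 18 to 50 reads per library, and its libraries scattered beyond counting error in rivaroxaban hearts.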

Other observations

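The remaining cell type lists were read beside the members. Of 17 tested ventricular cardiomyocyte markers, limma called Irx4, a ventricular transcription factor, which fell by 0.38 on the log2 scale in rivaroxaban hearts. It called 0 of 17 in dabigatran against untreated hearts and 0 of 17 between the drugs, with 4 at an unadjusted p under 0.05 for dabigatran and 1 between the drugs. Of 15 mural cell markers it called Myh11, a smooth muscle myosin, which fell by 0.34 in rivaroxaban hearts, and 0 of 15 in each of the other comparisons, with 3 at an unadjusted p under 0.05 in each. The median log2 difference of the ventricular list was −0.05 for rivaroxaban minus untreated, 0.00 for dabigatran minus untreated and −0.05 for rivaroxaban minus dabigatran, and that of the mural list −0.05, −0.04 and 0.04 in those 3 comparisons. The Irx4 and the Myh11 calls were each lost without rivaroxaban library 15, untreated library 8 or untreated library 9, and under quantile normalization, the Irx4 call also with the filter at a mean log2 CPM of 1. The 15 fibroblast markers had 0 called in each comparison, with 2 at an unadjusted p under 0.05 for each drug against untreated hearts and 6 between the drugs. Their median log2 difference was 0.09 for rivaroxaban minus untreated, −0.03 for dabigatran minus untreated and 0.04 for rivaroxaban minus dabigatran.

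Of 18 endothelial markers, limma called 2 in rivaroxaban and 3 in dabigatran against untreated hearts, and 0 of 18 between the drugs. At an unadjusted p under 0.05 stood 6 for rivaroxaban and 8 for dabigatran against untreated hearts, and 5 between the drugs. Eng, a co-receptor of the TGF-beta family, rose in both, with log2 differences of 0.26 for rivaroxaban and 0.25 for dabigatran. Emcn, a sialomucin of venous and capillary endothelium, fell by 0.43 in rivaroxaban hearts. Flt1, a VEGF receptor, and Aqp1, a water channel, rose in dabigatran hearts, with log2 differences of 0.29 and 0.37. The Emcn call was lost without rivaroxaban library 15. The Flt1 call was lost without either dabigatran or either untreated library, the Eng call in rivaroxaban hearts without either rivaroxaban or either untreated library, the Eng call in dabigatran hearts with any library left out except dabigatran 12, and the Aqp1 call with any library left out except untreated 9. These Eng and Aqp1 calls in dabigatran hearts were also lost in the fit of only the groups compared, and the Aqp1 call under quantile normalization. The endothelial list summed to 4798 to 4948 CPM in rivaroxaban hearts, 5248 to 5371 CPM in dabigatran hearts and 4710 to 4855 CPM in untreated hearts. This sum was led by Cd36, with a mean of 10.965 log2 CPM, which was not called. The median log2 difference of the list was 0.09 for rivaroxaban minus untreated, 0.14 for dabigatran minus untreated and −0.05 for rivaroxaban minus dabigatran.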
